A study of Mus musculus with 21 samples.

Results

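The Bach, CNC and small Maf transcription factors and their regulator Keap1 were followed across 7 groups of mouse haematopoietic cells on Agilent single-colour arrays. The set held the repressors Bach1 and Bach2, the small Maf partners Mafg, Mafk and Maff, the activators Nfe2l1, Nfe2l2 and Nfe2, and Keap1. Members were chosen by gene symbol through the RefSeq accession of each probe. No measured value was part of that rule, but the choice was made with earlier results of these data known. These 9 genes of 20018 named on the array were read by 12 probes of 26413 with a name, 2 for Bach2, 3 for Mafg and 1 for each of the others. Where a gene had several probes, the one with the highest mean over the 21 arrays was its main probe. Each group had 3 arrays. Common lymphoid progenitors (CLPs), marrow cells that give rise to lymphocytes, were sorted as pools of mice that were either wild type (WT) or deficient in both Bach1 and Bach2 (DD). Multipotent progenitors (MPPs) of WT mice, pooled from 4 mice per experiment, were stimulated overnight with SCF at 50 ng/ml, IL-3 at 5 ng/ml and IL-6 at 10 ng/ml. They were then infected with an MSCV retroviral vector carrying GFP alone (control vector) or Bach2 and GFP (Bach2 vector), and GFP+ cells were sorted after 2 days under multilineage conditions. A further Bach2-vector group had 24 h of multilineage culture and 6 days of B-lineage culture before cells positive for GFP and for the B-lineage surface marker B220 were sorted, so this group differed from the control vector cells in vector, culture and sort at once. Follicular B cells, the recirculating mature B cells, came from WT mice and from mice lacking Bach2 (Bach2KO), and had 24 h of stimulation through their antigen receptor with an anti-IgM fragment at 10 ug/ml. Neither sex nor age of the animals is stated in the sources used here.

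Bach, Nrf and NF-E2 p45 proteins are basic leucine zipper factors of the CNC family that bind DNA as heterodimers with a small Maf protein. The small Mafs have no activation domain of their own, so the CNC partner decides whether a bound site is repressed, as with Bach1 and Bach2, or activated, as with Nfe2l2 (Nrf2), Nfe2l1 (Nrf1) and Nfe2 (p45). Keap1 is the adaptor that hands Nfe2l2 to the Cul3 ubiquitin ligase for degradation. The shared sites, known as Maf recognition or antioxidant response elements, control genes of heme breakdown, iron storage and glutathione synthesis. In blood cells Bach2 is known for its role in B and T lymphocytes, Bach1 for repression by a factor that is released by heme, and Nfe2 for globin and platelet genes.

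Promoters of the members were searched for the core of that element, because it is the site these factors themselves bind. RefSeq promoters of the GRCm38.p6 assembly, from 250 bases before to 50 bases after each gene start, were available for 8 of the 9 members, with 14 promoters in all. The core was spelled TGACNNNGC and searched on both strands. It lay in 1 promoter each of Nfe2l2, Maff, Mafg and Mafk, that is in 4 of 14 member promoters, against 12.4% of the 32851 promoters in the table. The related heptamer TGAGTCA, a site of AP-1 and Bach2 heterodimers, was found in 0 of the 14 and in 5.20% of all. Each stretch is given on the strand of its gene with the matched core in capitals. In Mafg and Mafk the core runs on the opposite strand, so its reverse complement is read. The stretches lie at chr2:75704885-75704913 (minus strand, Nfe2l2), chr15:79346499-79346527 (plus strand, Maff), chr11:120633751-120633779 (minus strand, Mafg) and chr5:139791513-139791535 (plus strand, Mafk). A match describes these letters and is not a site of binding.
Nfe2l2: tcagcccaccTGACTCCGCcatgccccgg
Maff: gggcgtctcaTGACTCTGCcactggaaag
Mafg: ctctgcaggaGCACGGTCAacccggcgag
Mafk: gatcccggaaGCGGTGTCAgtac

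Levels are log2 signal relative to the 75th percentile of each array, so that a step of 1 means 2-fold more signal, and levels of different probes are not compared. Differences between groups are log2 values ± SE with limma's Benjamini-Hochberg adjusted p over all genes tested, and 0.05 was the limit for passing. The labels name pooled mice for the CLP and MPP groups and 1 amplified RNA sample for the follicular B cells, so p-values may partly measure technical spread there. The share of spots well above background was 50.9% to 58.8% on the follicular B-cell arrays and 62.6% to 81.5% on the others, and the number of arrays limits the precision. In bulk RNA, fewer cells of a type and less RNA per cell cannot be told apart.

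Markers of the labelled cell types were checked before the members were read. All 6 CLP markers were above background on every CLP array, with mean levels of 5.08 to 5.43. WT CLP replicate 3 stood apart with a mean of 2.20 over 7 granulocyte markers, against -2.87 and -2.88 in the other WT CLP arrays. DD replicate 2 stood at 1.60, against -0.44 and -2.21. The 6 B-cell markers had mean levels of 3.82 to 4.46 in WT and 3.22 to 3.65 in Bach2KO follicular B cells. In B220+ cells they had means of -3.26 to -2.95, close to the -3.70 to -3.04 of control vector MPPs. Of the 6, 4 to 5 were above background on the B220+ arrays and 5 on each control vector array. Ms4a1, which encodes CD20, was above background on 0 of 3 B220+ arrays. CLP markers were higher in B220+ cells (1.09 to 2.42) than in control vector MPPs (-2.41 to -1.08), with Dntt at 5.41, 5.67 and 5.65 against -1.93, -1.22 and -1.51. Granulocyte markers were also higher there, at 3.88 to 4.40 against 2.52 to 3.67. B220+ replicate 3 stood apart in 5 mast cell and basophil markers, at a mean of 4.07 against 2.07 and 0.42. Bach2KO replicate 2 had the dimmest array, with a 75th percentile of 97.3 against 194.5 to 357.5 on the other follicular B-cell arrays.

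**Figure D1:**
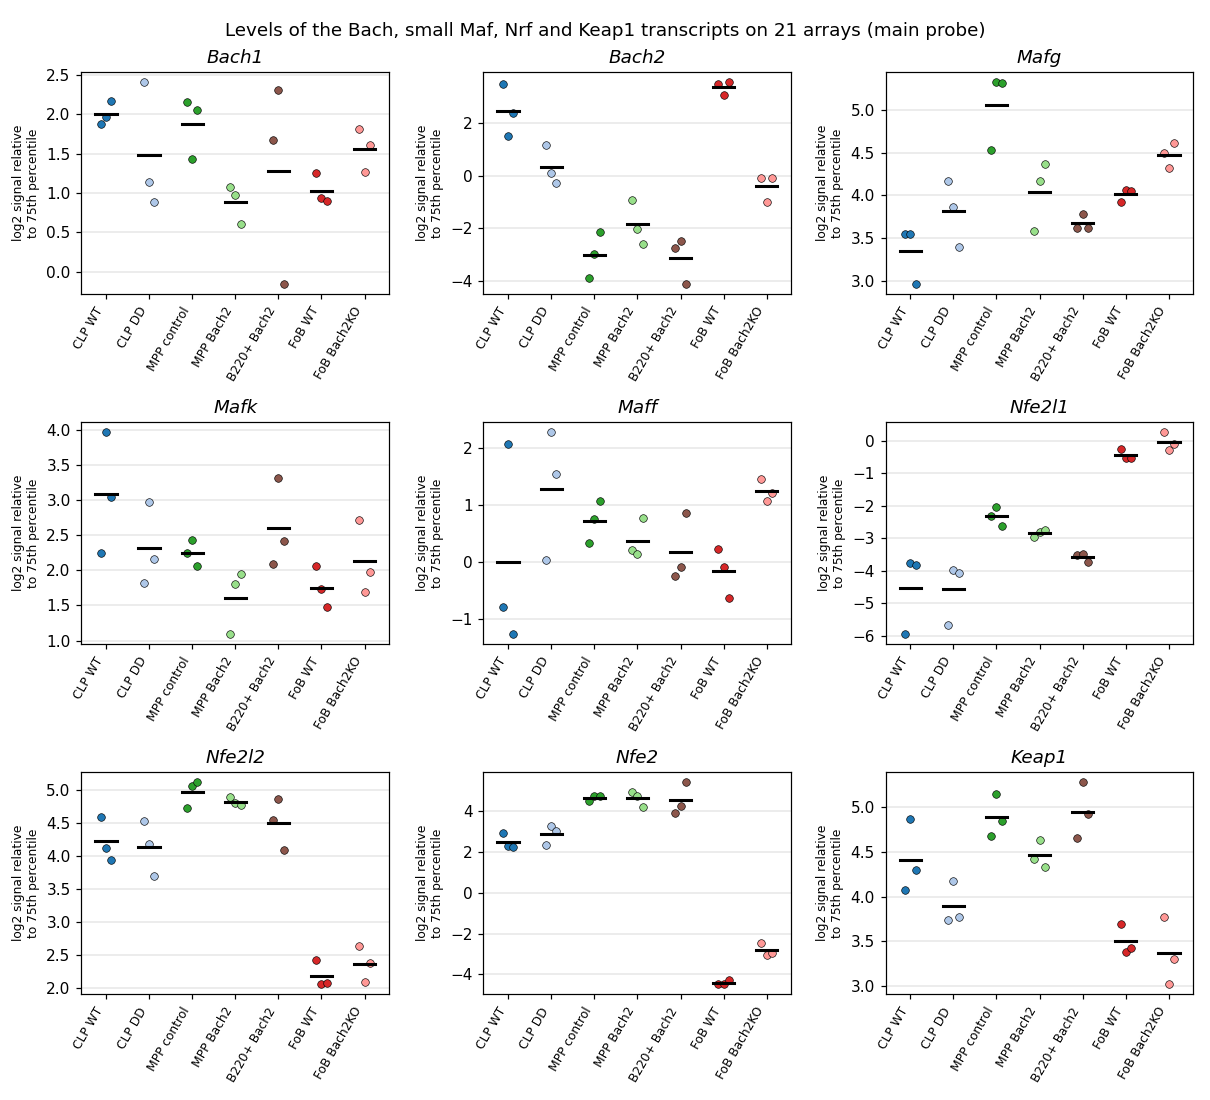
Level of each member by group, from its main probe (y axis: log2 signal minus the 75th percentile of the array, a range of its own in each panel). Points are the 3 arrays of a group and bars their means; Nfe2 and Bach2 spread most between groups, with group means 9.08 and 6.48 apart.

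At their main probes the members differed in how far they spread over the 7 groups. Group means of Nfe2 lay 9.08 apart, those of Bach2 6.48 and those of Nfe2l1 4.53, against 2.78 for Nfe2l2 and 1.12 to 1.70 for Bach1, Mafg, Mafk, Maff and Keap1. WT follicular B cells were highest for Bach2 and lowest for Nfe2. The lowest Bach2 mean at the main probe was in B220+ cells and the highest Nfe2 mean in control vector MPPs. The dimmer Bach2 probe ordered the groups otherwise, with its lowest mean in DD CLPs (-7.77). It read -3.89 in B220+ cells, against -6.78 in WT CLPs, -7.34 in control vector MPPs and -2.91 in Bach2-vector MPPs.

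At its main probe Bach2, the lymphoid repressor, had its highest levels in WT follicular B cells (3.37 ± 0.27, SD, n = 3 here and below) and WT CLPs (2.45 ± 0.98), whose arrays overlapped. DD CLPs (0.33 ± 0.75), Bach2KO follicular B cells (-0.39 ± 0.54), Bach2-vector MPPs (-1.84 ± 0.84), control vector MPPs (-2.99 ± 0.86) and B220+ cells (-3.11 ± 0.86) followed. The only gap between neighbours in that order lay between WT and DD CLPs. Bach1, the broadly expressed repressor, ran in a narrow band from 2.00 ± 0.16 in WT CLPs to 0.88 ± 0.25 in Bach2-vector MPPs, and no neighbours in its order were separated. The widest spread of Bach1 within a group was in B220+ cells, at 1.67, 2.30 and -0.15.

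Among the small Mafs, Mafg was at its main probe highest in control vector MPPs (5.06 ± 0.46) and lowest in WT CLPs (3.35 ± 0.34). Its 2 dimmer probes were lowest in WT CLPs too, but highest in Bach2KO follicular B cells. They read 2.86 and 2.65 there, against 1.08 and 0.33 in control vector MPPs. Mafk ran from 3.09 ± 0.86 in WT CLPs to 1.61 ± 0.46 in Bach2-vector MPPs. Maff, a small Maf known to be inducible by stress, was highest in DD CLPs (1.28 ± 1.14) and Bach2KO follicular B cells (1.23 ± 0.20) and lowest in WT follicular B cells (-0.17 ± 0.44). In none of these 3 genes did the order at the main probe show a gap between neighbouring groups, except between B220+ cells and WT CLPs in Mafg. The large spread of Maff in WT CLPs came with replicate 2 at 2.06 against -0.79 and -1.27 on the other arrays.

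The activators had clearer steps between cell types. Nfe2l2 was highest in the MPP groups, at 4.97 ± 0.21 with the control vector, 4.83 ± 0.06 with the Bach2 vector and 4.50 ± 0.39 in B220+ cells, and next in WT (4.23 ± 0.33) and DD CLPs (4.14 ± 0.42). Both follicular B-cell groups lay below every progenitor array, at 2.19 ± 0.20 in WT and 2.37 ± 0.28 in Bach2KO cells. Nfe2 showed 3 tiers. It stood at 4.55 to 4.67 in the means of the MPP-derived groups, at 2.51 ± 0.39 and 2.89 ± 0.47 in WT and DD CLPs, and at -2.81 ± 0.32 and -4.41 ± 0.11 in Bach2KO and WT follicular B cells. Nfe2l1, the factor known for proteasome gene induction, ran the other way. Its level was -0.45 ± 0.16 in WT and -0.04 ± 0.27 in Bach2KO follicular B cells, -2.33 ± 0.29, -2.84 ± 0.12 and -3.58 ± 0.15 in control vector, Bach2-vector and B220+ cells, and -4.52 ± 1.24 and -4.57 ± 0.95 in WT and DD CLPs. All 3 MPP-derived groups were separated from each other in Nfe2l1, without overlap. Keap1 was highest in B220+ cells (4.95 ± 0.32) and control vector MPPs (4.89 ± 0.24) and lowest in Bach2KO follicular B cells (3.36 ± 0.38).

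Cell types of different experiments were set against each other in 1 fit over all 21 arrays. Culture and experiment differed between these groups as well, and RNA of CLPs and MPPs went through 2 rounds of amplification whereas follicular B-cell RNA had a linear amplification, so that these cannot be told apart from cell type. Against control vector MPPs, WT CLPs had more Bach2 (5.44 ± 0.58, 43.4-fold, adjusted p = 9.0e-07) and less Nfe2 (-2.16 ± 0.37), Nfe2l1 (-2.18 ± 0.48) and Mafg (-1.70 ± 0.31, adjusted p = 3.4e-04). These were 4 of 9 members, beside 25% of 16729 genes. Bach2 read 3.46, 1.49 and 2.38 in the WT CLPs and -3.87, -2.96 and -2.15 in the control vector cells, far from overlapping. The other 5 members did not pass, Nfe2l2 at -0.75 ± 0.30 (adjusted p = 0.0749) being nearest. Without WT CLP replicate 3, the array with granulocyte transcripts, these 4 differences were 5.47, -2.04, -2.52 and -1.51, and each still passed. Without WT CLP replicate 1 Nfe2l1 differed by -1.47 (adjusted p = 0.0149). Without WT CLP replicate 2, Maff passed as well.

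B220+ Bach2-vector cells did not have the Bach2 level of CLPs at the main probe. It read -2.75, -2.49 and -4.10 there, 5.56 ± 0.58 below WT CLPs (adjusted p = 1.0e-06). Nfe2 stayed 2.04 ± 0.37 above WT CLPs (adjusted p = 5.0e-04), at 3.94, 4.28 and 5.43 against 2.96, 2.31 and 2.26. These were 2 of 9 members, beside 16.4% of 16243 genes. Mafg and Nfe2l1 did not pass in this comparison, at 0.32 ± 0.30 and 0.94 ± 0.48 (95% intervals -0.32 to 0.96 and -0.07 to 1.94). Without B220+ replicate 3 the Bach2 and Nfe2 differences were -5.07 and 1.60, and both passed.

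WT follicular B cells differed from WT CLPs in 5 of 9 members, beside 50.9% of 15801 genes, a share near the background. Nfe2 was lower by 6.92 ± 0.37 (adjusted p = 1.8e-11) and above background on 2 of 3 WT follicular B-cell arrays. Nfe2l2 was 4.10-fold lower (-2.03 ± 0.30), Mafk lower by 1.33 ± 0.44 and Keap1 by 0.91 ± 0.29, while Nfe2l1 was 16.7-fold higher (4.07 ± 0.48, adjusted p = 8.8e-07). Nfe2l1 read -0.26, -0.55 and -0.54 in these B cells and -5.94, -3.77 and -3.84 in the CLPs. The median of all genes shifted by -0.12 in this comparison and by 0.55 with another background correction (normexp), under which these 5 members kept their direction and passed but Nfe2 differed by -4.55. Without WT CLP replicate 1, which read -5.94, the Nfe2l1 difference was 3.35 and passed. Without WT CLP replicate 2, Mafk (adjusted p = 0.107) and Keap1 (adjusted p = 0.0820) did not pass, and without WT follicular replicate 3 Mafk did not (adjusted p = 0.0606).

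**Figure D2:**
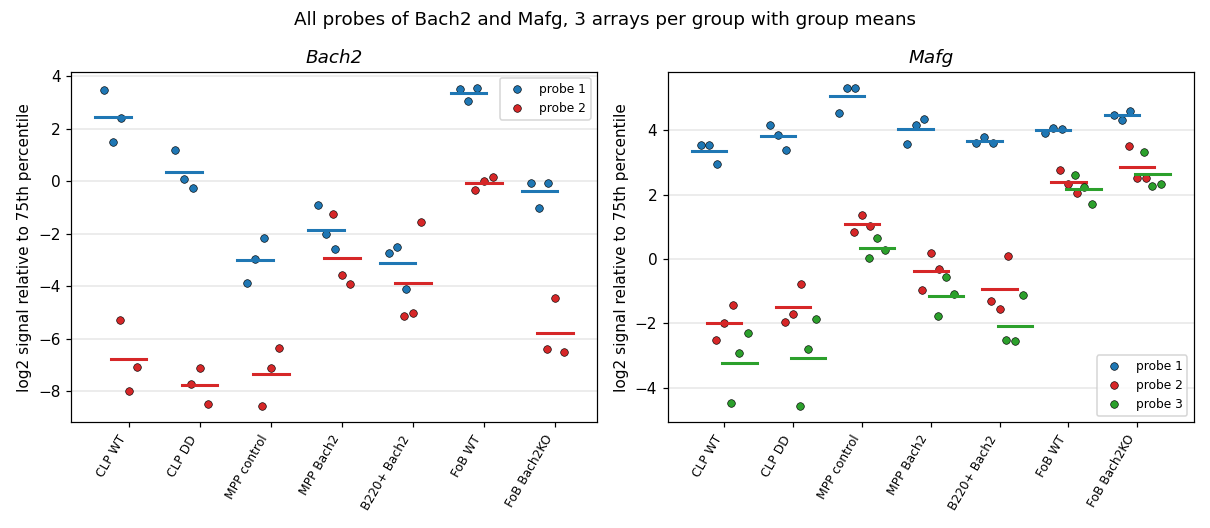
Levels of the 2 probes of Bach2 and the 3 probes of Mafg on the 21 arrays (y axis: log2 signal minus the 75th percentile of the array); points are arrays, bars are group means and colours are probes. Within the MPP experiment the probes of a gene move the same way between the control and Bach2 vectors, whereas from CLPs to follicular B cells the dimmer probes climb far more than the main ones.

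Probes of 1 gene disagreed between experiments. From WT CLPs to WT follicular B cells the main Bach2 probe differed by 0.92 ± 0.58, which did not pass, while the dimmer probe rose by 6.72 ± 0.91 from a level above background on 1 of 3 CLP arrays. The main Mafg probe differed by 0.66 ± 0.31 and did not pass, while its 2 dimmer probes rose by 4.37 ± 0.46 and 5.42 ± 0.62. Nfe2l1, read by 1 probe that was dim in CLPs, rose by 4.07 ± 0.48 between these groups, with no other probe to set beside it. The part of RNA amplification in these differences was not tested. In B220+ cells against WT CLPs the Bach2 probes went opposite ways, the main one lower by 5.56 and the dimmer one higher by 2.89 ± 0.91 (adjusted p = 0.0378 over probes). The position of either Bach2 probe against the deletion or the insert of the vector is not stated, so neither probe is a full check of the labels.

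**Figure D3:**
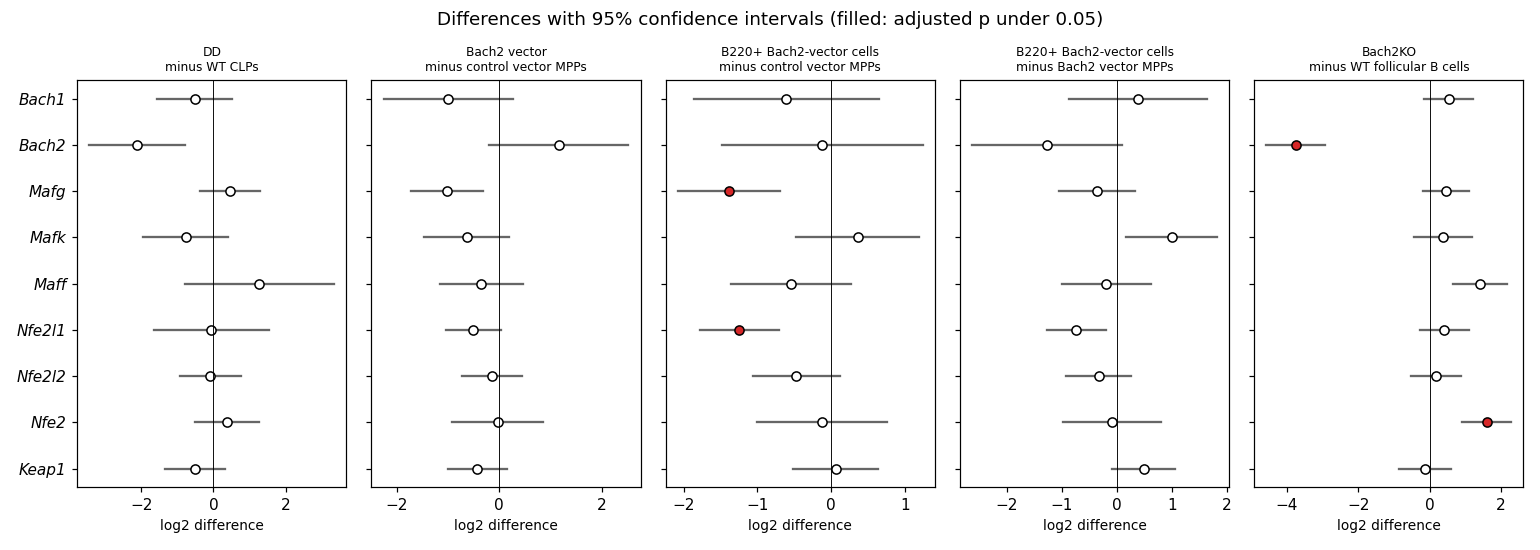
Log2 difference of each member in the 5 comparisons made within an experiment (x axis, a range of its own in each panel), with 95% confidence intervals as lines. Filled points passed at an adjusted p under 0.05, which were Mafg and Nfe2l1 in B220+ cells against control vector MPPs and Bach2 and Nfe2 in Bach2KO follicular B cells.

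The comparison of DD with WT CLPs asked what the joint loss of Bach1 and Bach2 does in lymphoid progenitors. None of the 9 members passed (0 of 9, smallest adjusted p = 0.999), where 0.00607% of 16466 genes did, and 1 member had an unadjusted p under 0.05 (limma), as did 619 genes in all. That member was Bach2, which read 1.17, 0.10 and -0.27 in DD against 3.46, 1.49 and 2.38 in WT cells. All DD arrays lay below all WT arrays, a separation that 7.91% of genes showed in either direction and 2.98% in this one. The difference of -2.11 ± 0.58 (4.32-fold lower, 95% interval -3.44 to -0.78) was -2.29, -1.39 and -2.66 within the 3 slides, which here are also the replicate numbers. Bach1, the other deleted gene, read 2.41, 1.14 and 0.88 in DD and 1.87, 1.96 and 2.17 in WT cells. DD replicate 1 thus lay above every WT array and the other DD arrays below, for a difference of -0.52 ± 0.45.

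The remaining members overlapped between the CLP genotypes. Maff read 0.03, 2.27 and 1.53 in DD against -0.79, 2.06 and -1.27 in WT cells, higher on each of the 3 slides (0.82, 0.21 and 2.80), but its difference of 1.28 ± 0.91 had a 95% interval of -0.80 to 3.35. Mafg was 0.46 ± 0.37 higher, Mafk 0.77 ± 0.52 lower and Nfe2 0.38 ± 0.39 higher, none of which passed. Nfe2l2 at -0.08 ± 0.37 and Nfe2l1 at -0.06 ± 0.69 lay nearest 0, and Keap1 read -0.52 ± 0.36. The 95% intervals ran from -1.65 to 1.53 for Nfe2l1 and from -0.94 to 0.77 for Nfe2l2, so changes of about 2-fold were not detectable for Nfe2l1. Without WT CLP replicate 3, which held granulocyte transcripts, Bach2 differed by -2.14, and without this array or without DD replicate 2 again 0 of 9 members passed. Maff differed by 0.64 without the former and 0.78 without the latter. Means of 6 multipotent progenitor markers were 4.17 to 4.34 in DD against 3.65 to 3.88 in WT cells, and those of the 6 B-cell markers -3.31 to -2.81 against -2.71 to -2.23, neither overlapping. The part of these markers in the member differences was not tested.

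What added Bach2 does in MPPs within 2 days was the question of the vector comparison. The 8 members other than Bach2 all had lower means with the Bach2 vector, but 0 of 9 members passed (limma), beside 1.80% of 16991 genes. At an unadjusted p under 0.05 there was 1 member, Mafg, and 1472 genes. In 5 members the groups did not overlap, Bach1, Mafg, Mafk, Nfe2l1 and Keap1, each lower with Bach2, where 14.9% of genes were separated in either direction and 7.29% in this one. The median difference was -0.43 over the members and -0.02 over all genes. Markers of other cell types moved with the vector. Of 6 NK and innate lymphoid markers 5 were above background in both groups, with means of -0.24 to 0.11 against -2.36 to -1.66, while 6 monocyte markers had means of 0.67 to 1.91 against 1.62 to 2.39 and 7 granulocyte markers 1.36 to 2.90 against 2.52 to 3.67. Their part in the member differences was not tested.

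Mafg, one of the small Maf partners of the Bach factors, read 3.59, 4.17 and 4.37 with the Bach2 vector and 4.53, 5.33 and 5.31 with the control vector. Every Bach2-vector array lay below every control array, for a difference of -1.02 ± 0.31 (2.02-fold, adjusted p = 0.215). It was -0.95 on slide 1 and -1.05 on slide 2, and with slide as a block the adjusted p was 0.0282, whereas with the replicate number as a block it was 0.131. The 2 dimmer Mafg probes read -1.44 ± 0.46 and -1.47 ± 0.45, separated as well and also not passing. Bach1 read 1.07, 0.98 and 0.60 against 2.15, 1.43 and 2.06, a difference of -0.997 ± 0.56 (adjusted p = 0.857). Mafk read 1.09, 1.80 and 1.94 against 2.25, 2.44 and 2.07 (-0.64 ± 0.37). Among the activators and Keap1, Nfe2l1 differed by -0.50 ± 0.24 and Keap1 by -0.43 ± 0.25. Nfe2l2 (-0.14 ± 0.26) and Nfe2 (-0.03 ± 0.39) lay near 0, and their 95% intervals of -0.73 to 0.45 and -0.92 to 0.85 exclude a 2-fold change in either direction.

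Bach2 itself gave a check of the vector that depended on the probe and the array. The main probe read -0.92, -2.03 and -2.57 with the Bach2 vector against -3.87, -2.96 and -2.15 without, overlapping, for a difference of 1.15 ± 0.60 (adjusted p = 0.775). The dimmer probe read -1.25, -3.57 and -3.90 against -8.57, -7.11 and -6.34, above background on 3 of 3 and 1 of 3 arrays, without overlap. Its difference was 4.43 ± 1.07, or 21.6-fold on a control signal mostly near background (adjusted p = 0.108 over probes). The slide 1 pair carried the larger part, with main-probe differences of 2.95 on slide 1 and 0.25 on slide 2 and dim-probe differences of 7.31 and 2.99. Without Bach2-vector replicate 1 the main probe differed by 0.69.

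B220+ Bach2-vector cells had less Mafg and less Nfe2l1 than control vector MPPs. These were 2 of 9 members, beside 12.1% of 16991 genes, with 7.45% of all genes passing as lower. Mafg read 3.61, 3.79 and 3.62 in B220+ cells against 4.53, 5.33 and 5.31, a fall by 1.38 ± 0.31 (2.61-fold, adjusted p = 0.0208). All 3 Mafg probes passed, the dimmer ones at -2.01 ± 0.46 and -2.40 ± 0.45. Nfe2l1 read -3.50, -3.48 and -3.74 against -2.31, -2.05 and -2.63, a fall by 1.24 ± 0.24 (2.37-fold, adjusted p = 0.00988). Both genes, and no other member, had groups that did not overlap, with B220+ cells lower, as did 23.5% of all genes. The median of all genes lay at -0.29 in this comparison, and relative to it the falls are smaller.

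All B220+ arrays lay on slide 1, with 1 control vector array. Within that slide Mafg differed by -0.86 and Nfe2l1 by -1.26, and with slide as a block the differences were -0.89 (adjusted p = 0.0399) and -1.19 (adjusted p = 0.0312). Mafg did not pass without control replicate 2 (adjusted p = 0.0919) or 3 (adjusted p = 0.0802) or B220+ replicate 1 (adjusted p = 0.0653) or 2 (adjusted p = 0.0523). Nfe2l1 did not pass with arrays scaled by their median (-0.93, adjusted p = 0.0794), in the fit of all 7 groups (adjusted p = 0.106) or without control replicate 2 (adjusted p = 0.0556). Without B220+ replicate 3, which held more mast cell and basophil transcripts, Mafg read -1.36 and Nfe2l1 -1.16, and both passed. NK and innate lymphoid markers had means of -0.78 to -0.32 in B220+ cells against -2.36 to -1.66 in control vector MPPs. These and the higher granulocyte, mast cell and CLP markers of the B220+ cells moved with the differences, and their part in them was not tested.

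Other members of the B220+ comparison did not pass. Keap1 (0.06 ± 0.25), Nfe2 (-0.12 ± 0.39) and main-probe Bach2 (-0.12 ± 0.60) lay near 0. The dimmer Bach2 probe read -5.12, -5.02 and -1.54, all above the control vector arrays, at 3.45 ± 1.07 (adjusted p = 0.0707 over probes). Against Bach2-vector MPPs, which share these B220+ arrays, 0 of 9 members passed (limma) beside 6.17% of genes, with 2 members and 4095 genes at an unadjusted p under 0.05. Those 2 were Mafk, which read 2.08, 3.32 and 2.41 against 1.09, 1.80 and 1.94 (0.99 ± 0.37, adjusted p = 0.148), and Nfe2l1 (-0.74 ± 0.24, adjusted p = 0.103). Mafk, Nfe2l1 and Keap1 were separated between these groups, and 29.2% of all genes were.

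Loss of Bach2 in stimulated follicular B cells was seen at both probes. The main probe read -0.07, -1.01 and -0.09 in Bach2KO against 3.49, 3.06 and 3.55 in WT cells, a fall by 3.76 ± 0.36 (13.5-fold, adjusted p = 9.2e-04). The dimmer probe was above background on 0 of 3 knockout arrays and at least 23.7-fold lower, a bound set by the lowest signal among probes well above background on those arrays. Signal remained above background at the main probe on all 3 knockout arrays. Bach2 and Nfe2 were the 2 of 9 members that passed, beside 2.72% of 13073 genes. Bach2 is the gene that these mice lack, and among the remaining members only Nfe2 passed. In all, 5 members did not overlap, Bach1, Bach2, Mafg, Maff and Nfe2, beside 18.7% of genes.

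Nfe2 was higher in Bach2KO cells, at -2.45, -3.06 and -2.93 against -4.48, -4.45 and -4.28, with 3 of 3 and 2 of 3 arrays above background. Its rise by 1.59 ± 0.31 (3.02-fold, adjusted p = 0.0275) was on both slides (2.04 and 1.37). The rise did not pass with normexp background correction (0.48, adjusted p = 0.844), quantile normalization (adjusted p = 0.164), median scaling (adjusted p = 0.540), a variance trend (adjusted p = 0.0656) or no filter on dim probes (adjusted p = 0.0877). It passed without Bach2KO replicate 2 (1.72, adjusted p = 0.0391) and did not without any of the other 5 arrays, with adjusted p from 0.0600 to 0.153. With the replicate number as a block its adjusted p was 6.8e-05.

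Some markers of cells in which Nfe2 is known to be active were also higher in Bach2KO cells, while others were not above background in either genotype. The mean of 6 erythroid markers was -5.24 to -4.24 in WT and -3.40 to -2.96 in Bach2KO cells, with 2 or 3 and 3 of 6 above background. Hba-a1 read 3.99, 1.74 and 3.61 against -2.24, 0.31 and 0.05, while Gata1 and Klf1 were above background on 0 arrays of either genotype. The mean of 5 megakaryocyte markers was -5.33 to -4.38 in WT and -4.91 to -3.32 in Bach2KO cells, which overlap. Pf4 was above background on 3 of 3 Bach2KO and 0 of 3 WT arrays, and Itga2b and Gp9 on 0 of either. Granulocyte markers had means of -3.70 to -0.68 and -1.23 to 0.56, also overlapping, with S100a8 at 0.58, 3.21 and 3.33 against -2.89, 1.06 and -0.22. The 6 B-cell markers were lower on every Bach2KO array, as given above. All 5 T-cell markers were above background on every follicular array, with means of -0.09 to 0.23 in WT and 0.64 to 1.18 in Bach2KO cells, and 0 of 5 mast cell and basophil markers were. The part of these markers in the Nfe2 difference was not tested.

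Maff was the next member in Bach2KO cells. It read 1.45, 1.06 and 1.19 against 0.23, -0.10 and -0.64, every knockout array above every WT array, at 1.41 ± 0.33 (2.65-fold, adjusted p = 0.0704). It was higher on both slides. With the replicate number as a block, under which 2980 genes passed in place of 356, the adjusted p was 2.2e-04, with slide as a block it was 0.00522 and with quantile normalization 0.0410. Mafg read 4.49, 4.33 and 4.61 against 3.93, 4.06 and 4.05 (0.46 ± 0.28) and Bach1 1.81, 1.27 and 1.60 against 1.25, 0.94 and 0.90 (0.53 ± 0.30), separated but not passing. Mafk (0.37 ± 0.36), Nfe2l1 (0.41 ± 0.30), Nfe2l2 (0.18 ± 0.31) and Keap1 (-0.14 ± 0.32) overlapped. The median of all genes lay at -0.16. Without Bach2KO replicate 2, the dimmest array, Bach2 differed by -3.45 and Maff by 1.49.

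**Figure D4:**
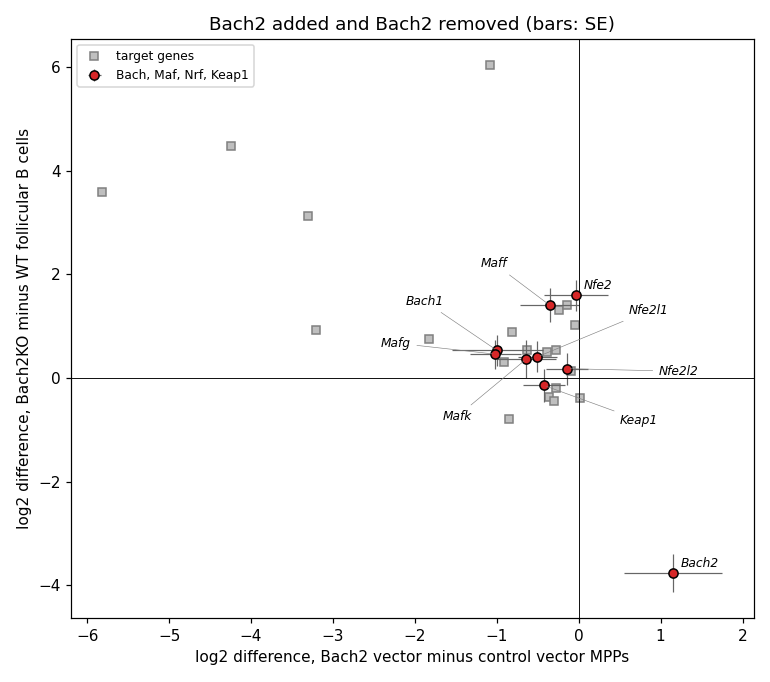
Log2 difference with added Bach2 in MPPs (x axis) against that with Bach2 removed in follicular B cells (y axis), for the 9 members (red circles, bars of 1 SE) and genes of the target list (grey squares). Of the 8 members other than Bach2, 7 lie in the upper left, lower with the vector and higher in the knockout; some target genes lie further out in that quadrant.

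Added and removed Bach2 could be set side by side because these comparisons share no arrays. Of the 8 members other than Bach2, all 8 had lower means with the Bach2 vector and 7 had higher means in Bach2KO cells, Keap1 being the exception. Both held for 7 of 8, against 21.3% of the 12995 genes tested in both comparisons, of which 53.6% were lower with the vector and 37.9% higher in the knockout. Most of these differences were small and did not pass, as given above, and the count is a description of directions. It was 6 of 8 with normexp correction, with median scaling and without control vector replicate 3 or Bach2-vector replicate 3, 8 of 8 without Bach2KO replicate 2, and 7 with quantile normalization, with outlier spots kept and without each of the other 9 arrays. These alternatives were added after the data were seen.

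Of 22 genes known as targets of the Bach and Nrf factors, 6 fell and 0 rose with the Bach2 vector, beside 0.724% of all genes passing as lower. Their median was -0.73, against -0.02 over all genes. Srxn1, which repairs oxidised peroxiredoxins, read -0.10, -0.85 and -1.10 against 3.82, 3.69 and 3.19, and Slc7a11, the cystine importer, -6.18, -5.60 and -5.89 against 0.41, -0.86 and 0.02. Gclm, a subunit of the glutathione-synthesis enzyme, fell by 3.21 ± 0.37 and Me1, which makes NADPH, by 5.82 ± 0.93. In B220+ cells against the control vector 12 of 22 fell and 0 rose, beside 7.45% of all genes passing as lower. The median was -1.60, against -0.29 over all genes. Among them Osgin1 fell by 5.13 ± 0.60 and Gsr, glutathione reductase, by 2.86 ± 0.35. Against Bach2-vector MPPs 2 of 22 fell, Osgin1 and Srxn1, beside 4.16% of all genes.

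In Bach2KO follicular B cells 5 of 20 measured target genes rose and 0 fell, beside 2.21% of all genes passing as higher. Their median was 0.65, against -0.16 over all genes. Hmox1, the heme oxygenase that is the classic Bach1 target, read 6.00, 5.94 and 5.61 against -0.22, -0.06 and -0.27, a rise of 65.6-fold (adjusted p = 6.7e-05). Srxn1 rose 22.4-fold, Nqo1, a quinone reductase, 8.71-fold and Fth1, the ferritin heavy chain, 2.64-fold, and Me1 at least 2.96-fold, being above background on 0 of 3 WT arrays. Me1 thus entered the test only through the Bach2KO arrays, so a fall of Me1 could not have been seen. Slc7a11 was above background on 0 arrays of either follicular genotype. In DD CLPs 0 of 21 passed, beside 0.00607% of all genes. There 17 of 21 had higher means, as did 53.7% of all genes, and the median was 0.40, against 0.04 over all genes. Hmox1 read -0.13, 0.79 and -0.54 there against -1.64, -1.48 and -1.76 (1.66 ± 0.41, adjusted p = 0.978), and Gclm 0.03, 1.60 and 0.81 against -1.56, -0.86 and -0.85. Of 22 target genes 14 were lower and 0 higher in WT CLPs than in control vector MPPs, beside 14% and 11% of all genes. Against WT CLPs, 1 rose and 1 fell of 21 in B220+ cells, Pgd and Srxn1, beside 16.4% of all genes passing. In WT follicular B cells 10 were higher and 3 lower of 21, beside 22.9% and 28% of all genes. There the ferritin light chain Ftl1 was 7.89-fold higher and Srxn1 13.5-fold lower than in WT CLPs.

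Genes of proteins that turn over the Nrf and Bach factors were set beside the share of all genes that passed. Of 15 such genes, among them Cul3, Sqstm1 and Fbxo22, 0 passed in DD CLPs, 0 with the Bach2 vector, 0 in B220+ cells against Bach2-vector MPPs and 0 in Bach2KO cells (limma). In the same order, 0.00607%, 1.80%, 6.17% and 2.72% of all genes passed. In B220+ cells against control vector MPPs Vcp, the segregase that extracts Nfe2l1 from the endoplasmic reticulum, fell by 0.87 ± 0.21 (adjusted p = 0.0266). It was the only one of the 15 to pass, beside 12.1% of all genes. Between cell types, 3 passed in WT CLPs against control vector MPPs, beside 25% of all genes. There the protease gene Ddi2, which activates Nfe2l1, was lower by 1.94 ± 0.26, Dpp3 was lower and the ubiquitin ligase subunit Btrc higher by 2.80 ± 0.47. In B220+ cells against WT CLPs 2 passed, Ddi2 higher and Btrc lower, beside 16.4% of all genes. In WT follicular B cells against WT CLPs 7 passed, 4 higher and 3 lower, a share near the 50.9% of all genes, among them Gsk3b at 2.05 ± 0.33, Cul1 at 1.42 ± 0.40, Syvn1 at 1.26 ± 0.36 and Btrc at -2.04 ± 0.46.

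Of 7 partners and corepressors of Bach2, Bcl6, a B-cell repressor, rose with the Bach2 vector, at 1.61, -0.14 and -0.07 against -1.54, -2.85 and -1.97 (2.59 ± 0.50, 6.01-fold, adjusted p = 0.0387). Bcl6 was the only one of the 7 to pass with the vector, beside 1.80% of all genes. It was higher in B220+ cells too (3.44 ± 0.50 over the same control arrays), where the corepressor deacetylase Hdac3 fell by 0.89 ± 0.25. In that comparison 12.1% of all genes passed. No partner passed in DD CLPs (0 of 7), in B220+ cells against Bach2-vector MPPs (0 of 7) or in Bach2KO cells (0 of 7), where Bcl6 read -0.77 ± 0.36. In the same order, 0.00607%, 6.17% and 2.72% of all genes passed. Between cell types Bcl6 was higher in WT CLPs than in control vector MPPs (2.62 ± 0.55) as the only one of 7, beside 25% of all genes passing. In B220+ cells against WT CLPs 0 of 7 passed, beside 16.4% of all genes. In WT follicular B cells 3 of 7 were higher and 2 lower than in WT CLPs, beside 22.9% and 28% of all genes. Among these were Rcor1 at 2.71 ± 0.47 and Hdac3 at -1.12 ± 0.35.

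Of 5 further CNC and large Maf genes, Maf, a large Maf with an activation domain, was 15.7-fold higher in Bach2KO than in WT follicular B cells. It read -0.58, 1.62 and -0.55 against -4.32, -4.26 and -2.84, above background on 3 of 3 and 2 of 3 arrays (3.97 ± 0.65, adjusted p = 0.0134). In DD CLPs it read lower by 2.03 ± 0.44 (adjusted p = 0.719), and 0 of 4 measured genes passed there, as did 0 of 3 in each comparison within the MPP experiment. Of all genes, 0.00607% passed in DD CLPs and 1.80% to 12.1% in the MPP comparisons. Nfe2l3 (Nrf3) was above background on all 3 WT CLP arrays and on 1 of 3 DD arrays, at -5.05, -1.63 and -4.38 against -5.88, -7.34 and -8.48, and on 0 arrays of the other 5 groups. It was at least 11.3-fold higher in WT CLPs than in control vector MPPs and at least 8.09-fold higher than in B220+ cells. In comparisons of WT CLPs with other cell types Nfe2l3 entered the test only through the WT CLP arrays. In WT follicular B cells Mafa was higher and Maf and Nfe2l3 were lower than in WT CLPs.

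Genes whose pattern over the 21 arrays was most like that of a member were taken by Pearson's r among 16586 genes. The arrays share experiment, slide and amplification, so r is a description. Bach2 was most like Vpreb3 (r = 0.92), then Ptpdc1 and Rftn2. Mafg was most like Scarf1 (0.90), Rhoj and the chemokine Cxcl3, Mafk like Csrnp2 (0.83), Ip6k1 and Fbxw2, and Maff like the stress-response factor Atf3 (0.82), Igf1 and Eif1. Bach1 was most like Fgfbp3 (0.81), Rasa2 and Hipk3, and Keap1 like Ccdc51 (0.95), Arfgef1 and Timm29. The members that mainly separate follicular B cells from progenitors had higher values, with Nfe2 like the centromere kinesin Cenpe (0.99), Mboat1 and Sestd1, Nfe2l2 like Twf1 (0.98), Ctsl and Il11ra1, and Nfe2l1 like Hira (0.97), Atxn1 and Clcn7.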

How the data were processed

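The deposited array files held spot intensity values that the authors obtained with Feature Extraction, version 10.7.3.1 per the file headers and 9.1 per the submitters' processing notes. The processed signal used here is background-corrected on a linear scale, and the deposited value table held the same numbers. Of 62976 spots 3671 were controls. Spots marked as outliers were dropped and the rest averaged per probe. Log2 values were computed here from the deposited intensities, which were linear, and from each was taken the 75th percentile of the gene spots of its array. Names came from RefSeq accessions, of a later assembly than the build in the headers, for 26413 of 55681 probes. No array column was left unmapped (0), saturation affected 0 gene spots, and no arrays held identical values (0 pairs).

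A gene entered a test if its main probe exceeded background clearly on 3 or more arrays and each group kept 2 or more values, with limma 3.58.1 (lmFit, eBayes) in R 4.3.3 with the data.table package, version 1.17.8. CLPs, the 3 MPP groups (1 shared spread) and follicular B cells were fitted separately. Python 3.11.15, pandas 2.3.3, numpy 2.4.6 and matplotlib 3.10.9 were used for promoters and figures. The fit was tested on simulated data. Alternatives covered background, scaling, filters, the set of probes tested, variance trend, blocks, samples in the fit and leaving out each array. With all named probes tested, each gene was still read at its main probe, so no alternative took another probe for a gene.

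All 9 members are named throughout, with up to 4 genes per pathway list and comparison that passed, by smallest p, and the 3 genes most like each member. Genes added to these as examples, such as Cul3, Nfe2l3 in DD CLPs and list genes that did not pass, were chosen after their values were seen. Members, lists and rules were chosen with earlier results of these data known. Some genes of the lists are not reported here.

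Replicate numbers in the labels were checked by correlating deviations from group means. These were 0.43, 0.39 and 0.22 in CLPs, 0.65, 0.41 and 0.30 between vectors and 0.86, 0.72 and 0.53 in follicular B cells, and by the rule that every pair exceed 0.1 the numbers pair the arrays there. The highest correlation between different numbers was 0.07, 0.31 and 0.50 in these comparisons, which the rule did not weigh. Between vectors it exceeded that of number 3. Values are from fits without the pairing unless a replicate block is named. In the last 2 of these, the first slide held number 1 and the second the other numbers. In B220+ cells against control vector MPPs they were 0.12, -0.04 and -0.06, and against Bach2-vector MPPs 0.08, 0.12 and 0.10, and no pairing was assumed.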

Additional observations from a re-analysis of the deposited data

How the results depend on the processing

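Over all members, comparisons and alternatives 1258 values were computed. Of these 1228 kept their call, 21 lost it, 9 gained one and 0 calls reversed, while 44 values that did not pass changed sign. One alternative, the deposited value table, held the same numbers as the signal used here, so its calls could not change. Alternatives that changed only the filter, the variance trend or the set of probes tested left each difference as it was. Those could not reverse a call. The number of genes passing between DD and WT CLPs was 1, but 0 with median scaling, with all named probes tested or with the replicate block, and 8 with the 7 groups in 1 fit. Members passing between vectors went from 0 to 1 with slide as a block (Mafg), and in B220+ cells against control vector MPPs from 2 to 1 with median scaling or the 7 groups in 1 fit. Fitting only the 2 groups gave 659 genes in place of 1048 for B220+ against Bach2-vector cells. In Bach2KO cells 356 genes passed, 123 with normexp (members 1), 144 with median scaling (members 1), 2980 with the replicate block and 1196 with the slide block. Of those passing, 81.2% were higher in the main setting, 42.0% with the replicate block and 57.1% with the slide block. Members there were also 1 with no filter on dim probes, with the filter on every array, which leaves Nfe2 untested, and with a variance trend. The cause was not tested. The replicate block changed 1 member call, Maff in Bach2KO cells. With 1 array left out, genes passing ranged over 0 to 28 (DD), 96 to 198 (vector), 1028 to 2638 and 448 to 1699 (B220+ against control and Bach2-vector MPPs), 110 to 371 (Bach2KO), 2977 to 3557 (CLPs against MPPs), 1805 to 2247 (B220+ against CLPs) and 6259 to 7319 (follicular B cells against CLPs). Members ranged over 0 to 2 in B220+ against control cells, 1 to 2 in Bach2KO, 4 to 5 in CLPs against MPPs and 3 to 5 in follicular B cells against CLPs, and stayed at 0 or 2 elsewhere. Normexp used the median spot signal, chosen after seeing that the files hold no mean signal. Low signal limits Nfe2 in B cells, Nfe2l1 in CLPs and the dimmer Bach2 probe.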
